A study of Mus musculus with 18 samples.

Results

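Zfp37, Ppp1r18, Tulp4 and Adgb are 4 of the 51 features that the processed table of the mouse brain arrays pairs with a gene name, among 12439 features measured. They were chosen by name after earlier results on the same arrays had shown Zfp37 higher, and the other 3 genes lower, in both stored-potato groups than in water controls. The values of those groups against control therefore chose the members and are given as a description, with no test. Brain RNA came from male BALB/cOlaHsd mice aged 8 weeks at the start, gavaged daily for 20 days beside standard chow, with 1 one-colour array (Cy3 dye) per mouse and 3 mice labelled for each of 6 groups. Control mice received water and ADI mice a mixture of 9 pesticides, each at its acceptable daily intake. PC and PO mice received 30 mg per day of flour from potatoes grown conventionally or organically, and PCS and POS mice the same amount of flour from such potatoes under storage conditions; these 2 groups are called stored here and the other 4 unstored. The labels do not say how the potatoes were stored. Each replicate number is the brain of a separate mouse by the labels, and each group held 12 mice in the study.

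As background, the 4 genes encode unrelated proteins. Zfp37 is a DNA-binding zinc finger protein known from mouse testis and neurons. Ppp1r18 (phostensin) brings protein phosphatase 1, the enzyme that removes phosphate from serine and threonine, to actin filaments. Tulp4 belongs to the tubby-like family and carries the SOCS box that links proteins to ubiquitin ligases. Adgb (androglobin) joins a globin to a calpain-like protease domain, and in the mouse it is needed for sperm formation and linked to motile cilia. In whole brain, fewer cells of a type and less RNA per cell cannot be told apart.

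By RefSeq on GRCm38.p6, Zfp37 spans chr4:62189537-62209129, Ppp1r18 chr17:35865593-35875596, Tulp4 chr17:6106253-6240637 and Adgb chr10:10335703-10475093. The table's accessions NM_009554, NM_175242 and NM_054040 for Zfp37, Ppp1r18 and Tulp4 matched RefSeq, and Adgb, listed by the Ensembl transcript ENSMUST00000045328, matched by symbol. The probe sequences and the exons they lie in were not used here. The promoters of the 4 genes, shown because 3 of the genes moved together and the fourth against them, are RefSeq windows of 250 bases before to 50 after the farthest upstream of the starts listed for each gene, which lies inside the span above (2 starts were listed for Zfp37 and Tulp4, 4 for Ppp1r18 and 1 for Adgb). Each is printed 5′ to 3′ on the gene's strand, and capitals mark the 6 motifs searched on both strands.
Zfp37 chr4:62208497-62208796, minus strand: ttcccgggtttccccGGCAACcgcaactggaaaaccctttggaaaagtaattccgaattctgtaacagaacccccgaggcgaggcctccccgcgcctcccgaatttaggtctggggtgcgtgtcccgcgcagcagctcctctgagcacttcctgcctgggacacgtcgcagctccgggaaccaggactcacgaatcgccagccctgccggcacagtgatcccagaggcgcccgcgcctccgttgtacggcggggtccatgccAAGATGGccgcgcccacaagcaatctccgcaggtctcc
Ppp1r18 chr17:35865345-35865644, plus strand: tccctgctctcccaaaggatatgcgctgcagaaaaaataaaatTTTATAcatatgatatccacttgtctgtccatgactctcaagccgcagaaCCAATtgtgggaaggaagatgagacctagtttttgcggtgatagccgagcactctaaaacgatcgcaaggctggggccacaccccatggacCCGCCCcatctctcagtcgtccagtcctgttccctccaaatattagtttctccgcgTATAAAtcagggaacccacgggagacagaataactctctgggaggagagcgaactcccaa
Tulp4 chr17:6106580-6106879, plus strand: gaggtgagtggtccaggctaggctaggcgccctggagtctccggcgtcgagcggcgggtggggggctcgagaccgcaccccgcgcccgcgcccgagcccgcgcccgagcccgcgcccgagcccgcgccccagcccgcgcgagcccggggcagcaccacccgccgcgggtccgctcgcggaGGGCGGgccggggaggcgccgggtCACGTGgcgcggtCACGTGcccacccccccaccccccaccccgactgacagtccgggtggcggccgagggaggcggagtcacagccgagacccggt
Adgb chr10:10472350-10472649, minus strand: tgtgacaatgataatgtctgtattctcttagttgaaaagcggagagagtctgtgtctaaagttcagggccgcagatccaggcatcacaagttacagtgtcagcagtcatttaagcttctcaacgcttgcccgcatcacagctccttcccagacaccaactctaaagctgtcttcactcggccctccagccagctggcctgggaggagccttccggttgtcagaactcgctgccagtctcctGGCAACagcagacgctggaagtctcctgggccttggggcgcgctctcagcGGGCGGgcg

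No searched motif was found in all 4 windows. The GC box GGGCGG occurred once each in Ppp1r18, Tulp4 and Adgb and was not found in the Zfp37 window, and 35.7% of all 32851 promoter windows hold it. The RFX half-site GGCAAC (in 12.5% of all windows) occurred once in Zfp37 and once in Adgb, genes that moved in opposite directions. The Zfp37 window also held the YY1 core AAGATGG (6.34%), while the Tulp4 window held the E-box CACGTG 2 times (7.15%). Ppp1r18 held the TATA box TATAAA 2 times (13.6%) and the CCAAT box CCAAT once (37.4%). The GC content was 64% in the Zfp37 window, 49.3% in Ppp1r18, 81% in Tulp4 and 56% in Adgb, with a median of 52.7% over all windows. No marked letters overlapped between motifs, and a match describes letters only.

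Of the 18 arrays 15 were used: all 3 of control, of ADI and of PC, and 2 from each remaining group. In 12439 of 12439 features the PO replicate 2 value was the average of those of PO replicate 3 and PCS replicate 1 (tolerance 1e-09). The columns PCS replicate 3 and POS replicate 3 had r from -0.19 to -0.16 over features with the arrays kept, and r = 0.95 with each other. Levels below are scaled intensities, that is, intensities after each array was brought to a common 75th percentile. Before scaling, that percentile lay between 838.5 and 1079 on the 11 unstored arrays and between 1531 and 1995.5 on the 4 stored arrays. Storage and array brightness cannot be told apart. Only 3 of 26 marker genes of brain and blood cell types have a name in the table, Vgf, Sh3gl2 and Rbfox2, all 3 from the list used for neurons. Their control levels were 453 ± 46.6, 621 ± 23.7 and 1180.2 ± 197 (SD, n = 3).

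Zfp37 was higher on every stored array than on any unstored one. In control brain it had 933, 1056 and 1928 in replicates 1, 2 and 3. ADI brains gave 805, 904 and 2072, PC brains 781, 970.2 and 2355, and the PO brains of replicates 1 and 3 gave 885 and 2190.2. Replicate 3 was thus the highest array of each of these groups, at about the same level in all 4. The stored groups gave 21008 and 4790.5 in PCS replicates 1 and 2, and 2641 and 11765 in POS replicates 1 and 2. All 4 stored arrays lay above all 11 unstored arrays, but POS replicate 1 exceeded PC replicate 3 by little, and the arrays within PCS and within POS differed by 4.39-fold and 4.45-fold.

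Ppp1r18, the actin-directed phosphatase subunit, took the opposite course. It had 62278, 62639.8 and 33612.5 in control replicates 1, 2 and 3, and 60685, 58704 and 41219 in ADI. PC brains gave 57615, 51033 and 28334.5, and PO brains 60644 and 33208. Here replicate 3 was the lowest array of each unstored group. The stored brains gave 2090.2 and 7842 in PCS and 17161 and 4357 in POS, all below every unstored array.

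Tulp4 followed the pattern of Ppp1r18 with a single exception. Its levels were 64834, 64400.1 and 34163.5 in control, 40475, 56668 and 40888 in ADI, 58004, 55257 and 29287 in PC, and 63109 and 35501 in PO. The exception was ADI replicate 1, where Tulp4 lay at about the level of ADI replicate 3 although Ppp1r18 did not. In stored brains Tulp4 had 1737 and 7282 in PCS and 17245 and 3588 in POS, again below every unstored array.

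Adgb had 66113, 63293 and 35244 in control, 58426, 56771 and 41586 in ADI, 57650, 56140.1 and 31654 in PC, and 65032 and 36325 in PO. Its stored levels were 1591 and 6474 in PCS and 16805 and 377 in POS. All 4 stored arrays lay below the unstored ones, and POS replicate 2 stood far below the other stored arrays.

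**Figure D1:**
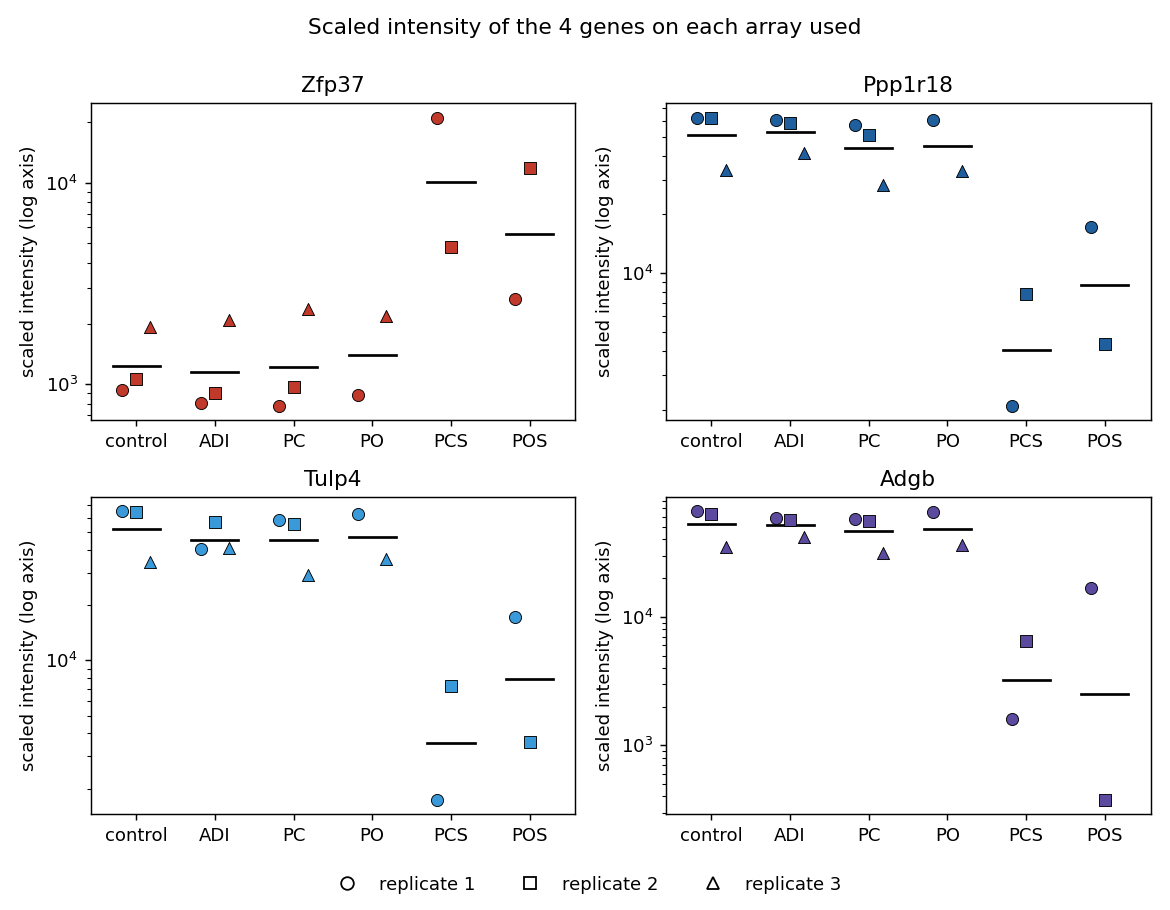
Scaled intensity (log axis) of Zfp37, Ppp1r18, Tulp4 and Adgb in the 6 groups; each point is 1 mouse, its shape gives the replicate number and the bar is the mean of log2 values. Zfp37 lay between 781 and 2355 on the 11 unstored arrays and between 2641 and 21008 on the 4 stored ones, and the other 3 genes show the reverse order.

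Ordered by mean log2 level, Zfp37 ran from PCS and POS through PO, control and PC to ADI. The step from POS to PO was 2.00 on the log2 scale with no overlap of arrays, against a pooled SD of 1.26, and every other pair of neighbours in the order overlapped and differed by less than its pooled SD. For Ppp1r18 the order was ADI, control, PO, PC, POS and PCS, for Tulp4 control, PO, PC, ADI, POS and PCS, and for Adgb control, ADI, PO, PC, PCS and POS. In these 3 genes the single step without overlap was also the one from unstored to stored, of 2.34, 2.53 and 3.87 with pooled SDs of 1.06, 1.15 and 1.07. Over all features, 1.87% had all stored arrays above all unstored ones and 2.09% had them below, and these contrasts chose the members, so nothing is read from the members' own count.

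By replicate number, the unstored groups repeated a single pattern. Replicate 3 exceeded the mean of the other arrays of its group in Zfp37 by 1.94-fold in control, 2.43-fold in ADI, 2.70-fold in PC and 2.48-fold in PO. In Ppp1r18 the others exceeded replicate 3 by 1.86-fold, 1.45-fold, 1.91-fold and 1.83-fold in the same order, and in Adgb by 1.84-fold, 1.38-fold, 1.80-fold and 1.79-fold. For Tulp4 the factors were 1.89, 1.17, 1.93 and 1.78, the ADI value being the smallest, as ADI replicate 1 was also low. Replicate 1 minus replicate 2 was -0.18 on the log2 scale in control, -0.17 in ADI and -0.31 in PC for Zfp37, -0.01, 0.05 and 0.17 for Ppp1r18, and 0.06, 0.04 and 0.04 for Adgb. For Tulp4 it was 0.01, -0.49 and 0.07, so that in ADI these replicates differed by more than replicate 3 did from their mean (-0.23).

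The 4 replicate 3 arrays lay wholly above the 7 arrays of replicates 1 and 2 for Zfp37, as for 1.82% of all features, and wholly below them for Ppp1r18 and Adgb, as for 2.77% of all features. Tulp4 overlapped through ADI replicate 1. Ranked within each group instead, replicate 3 was the lowest array in all 4 unstored groups for 6.99% of features and the highest for 6.01%. For Ppp1r18, Adgb and Zfp37 this ranking held, whereas Tulp4 on ADI replicate 1 was the lowest of its group. No label says what a shared number stands for, and this pattern was part of how the genes were singled out, so it carries no test. Around the group means of the 11 unstored arrays, Zfp37 had a residual SD of 0.76 on the log2 scale and 2.28% of features varied more. Ppp1r18, Tulp4 and Adgb had 0.49, 0.49 and 0.46, with 10.6%, 10.9% and 12.6% of features more variable, where the median feature had 0.22.

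**Figure D2:**
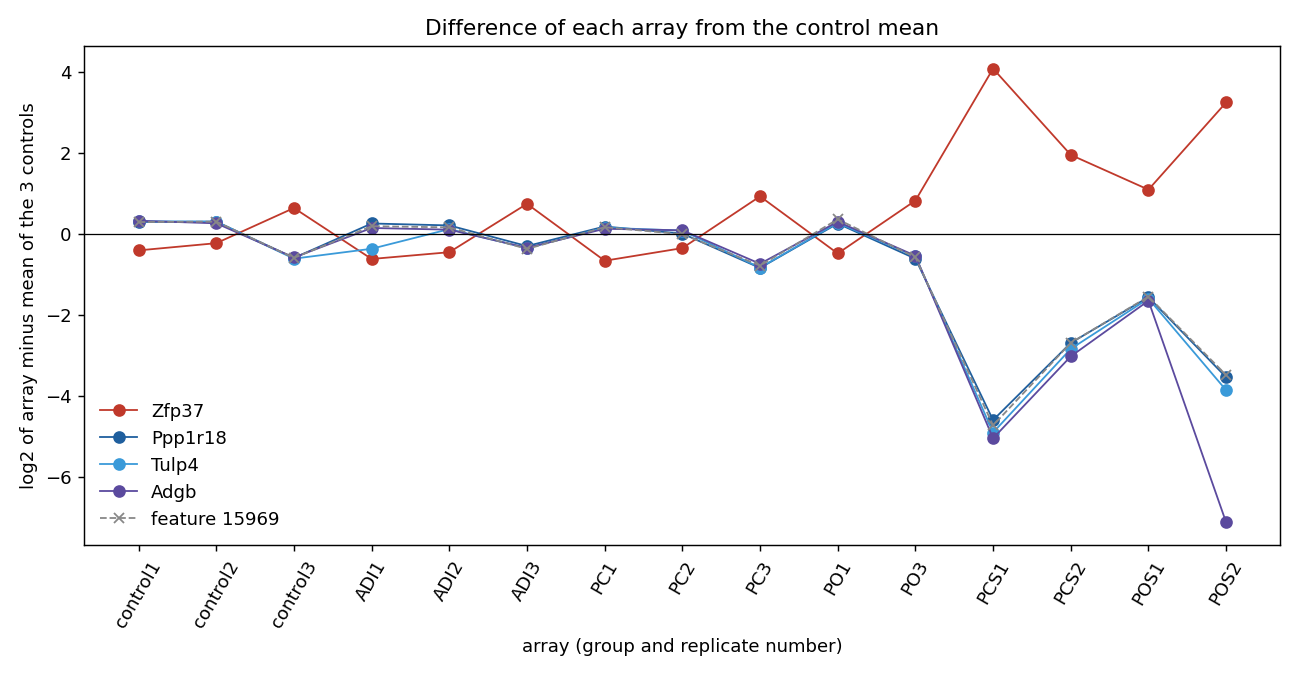
Difference in log2 scaled intensity of each array from the mean of the 3 controls, for the 4 genes and the unnamed feature 15969; the horizontal axis lists the 15 arrays by group and replicate number. The lines for Ppp1r18, Tulp4, Adgb and feature 15969 nearly coincide except on ADI replicate 1 and POS replicate 2, and Zfp37 mirrors them, with its peak of 4.08 on PCS replicate 1.

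The pesticide mixture and unstored flour were compared with water to ask whether either alone altered brain expression. The genes were not chosen on these contrasts, which share the control arrays with the contrasts that chose them. The authors also selected the named features by fold on these same arrays, so the comparisons are not wholly free of selection. Beside the same-numbered control, Zfp37 in ADI differed by -0.21, -0.22 and 0.10 on the log2 scale in replicates 1, 2 and 3. Ppp1r18 differed by -0.04, -0.09 and 0.29, Adgb by -0.18, -0.16 and 0.24, and Tulp4 by -0.68, -0.18 and 0.26. In each gene the sign in replicate 3 was opposite to that in replicates 1 and 2, and the -0.68 of Tulp4 was the farthest from 0 of these 12 differences. By limma on 15 arrays the change in ADI was -0.11 ± 0.70 (SE) in Zfp37, 0.05 ± 0.56 in Ppp1r18, -0.20 ± 0.61 in Tulp4 and -0.03 ± 1.03 in Adgb (adjusted p 1.00 for each). No feature passed (0%), with 196 of 12439 at an unadjusted p under 0.05.

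In PC, flour from unstored conventional potatoes, Ppp1r18, Tulp4 and Adgb lay below the same-numbered control in 3 of 3 replicates. The differences ran from -0.30 to -0.11 in Ppp1r18, from -0.22 to -0.16 in Tulp4 and from -0.20 to -0.16 in Adgb. Zfp37 had -0.26, -0.12 and 0.29 in replicates 1, 2 and 3, so it was higher only in the replicate where it was already high. By limma the changes were -0.22 ± 0.56 (SE) in Ppp1r18, -0.20 ± 0.61 in Tulp4, -0.18 ± 1.03 in Adgb and -0.03 ± 0.70 in Zfp37, none of which passed (adjusted p 1.00). Over all features 0% passed and 170 had an unadjusted p under 0.05.

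In PO, from unstored organic potatoes, the 2 mice that have a same-numbered control differed from it by -0.08 and 0.18 in Zfp37 and by -0.04 and -0.02 in Ppp1r18. Tulp4 had -0.04 and 0.06 and Adgb -0.02 and 0.04, so these 3 genes stayed within 0.06 of the control on the log2 scale. The fit gave 0.17 ± 0.79 (SE) in Zfp37, -0.18 ± 0.63 in Ppp1r18, -0.14 ± 0.68 in Tulp4 and -0.12 ± 1.15 in Adgb (limma, adjusted p 1.00). PC against PO, conventional against organic, gave -0.20 ± 0.79 in Zfp37, -0.04 ± 0.63 in Ppp1r18, -0.06 ± 0.68 in Tulp4 and -0.05 ± 1.15 in Adgb (limma, adjusted p 1.00). That fit sets PC replicates 1, 2 and 3 against PO replicates 1 and 3. Between the same-numbered arrays 1 and 3, PC minus PO was -0.07 and -0.23 in Ppp1r18, -0.12 and -0.28 in Tulp4, -0.17 and -0.20 in Adgb, and -0.18 and 0.10 in Zfp37. In each of these comparisons 0% of features passed, with 285 and 169 at an unadjusted p under 0.05.

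These standard errors rest on all 15 arrays, the widely spread stored ones included, and on groups that mix replicate 3 with the others. With replicate number as a block and the 11 unstored arrays alone, a setting added after the data were seen, the 95% intervals narrowed. Whether the numbers pair the PO arrays with the other groups was not checked. For ADI against control they ran from -0.38 to 0.16 in Zfp37, from -0.20 to 0.31 in Ppp1r18, from -0.64 to 0.24 in Tulp4 and from -0.28 to 0.22 in Adgb. For PC against control they ran from -0.30 to 0.24, from -0.47 to 0.04, from -0.64 to 0.24 and from -0.43 to 0.08 in the same order of genes. For PO against control they ran from -0.29 to 0.33, from -0.36 to 0.23, from -0.50 to 0.52 and from -0.30 to 0.28. For PC against PO the blocked differences were -0.05, -0.15, -0.21 and -0.16, with intervals from -0.36 to 0.26, from -0.45 to 0.14, from -0.72 to 0.30 and from -0.46 to 0.13 (limma, adjusted p from 0.890 to 0.959). All of these intervals include 0, and none reaches a 2-fold difference, which is 1 on the log2 scale. The replicate 3 pattern that the block takes out was part of how the genes were singled out. The narrower intervals are therefore a description and set no bound on the differences.

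**Figure D3:**
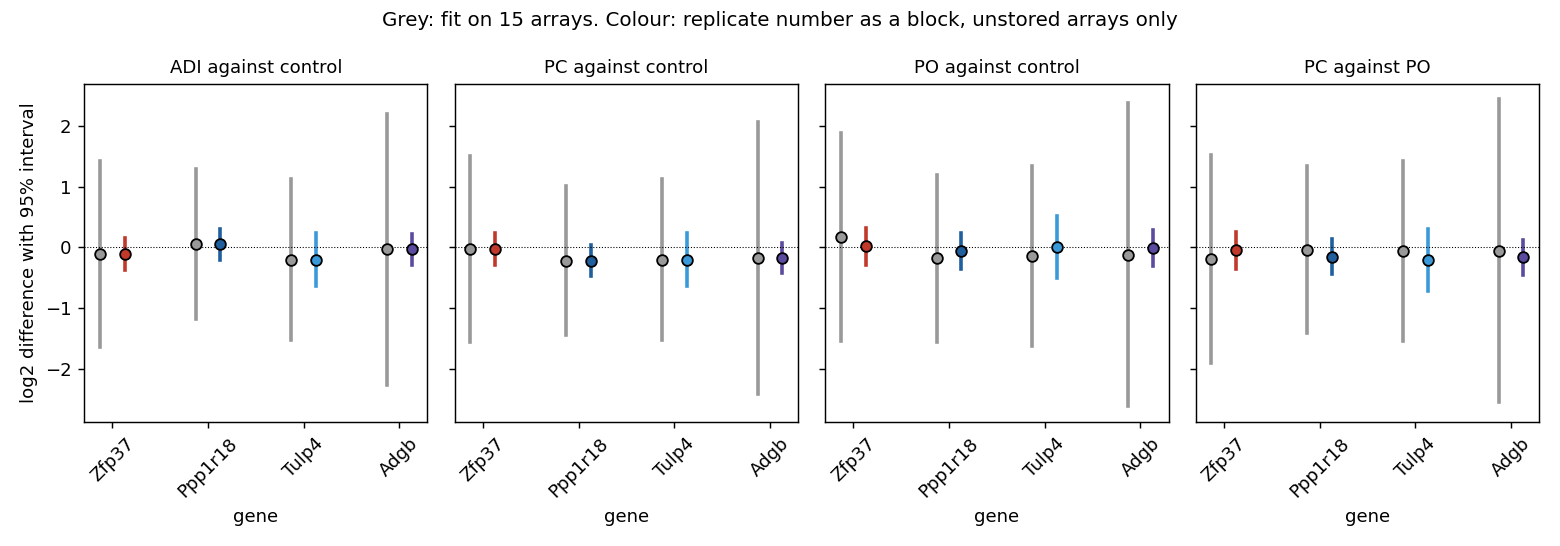
Log2 difference with its 95% interval for the 4 genes in 4 comparisons among unstored groups, by the fit on 15 arrays (grey) and with replicate number as a block on unstored arrays only (colour). All intervals include 0, and for Zfp37 in ADI against control the coloured interval runs from -0.38 to 0.16 where the grey one runs from -1.65 to 1.42.

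In the stored groups the change was graded over single mice. Zfp37 stood above the geometric mean of the controls by 17.0-fold on PCS replicate 1, 9.50-fold on POS replicate 2, 3.87-fold on PCS replicate 2 and 2.13-fold on POS replicate 1. Ppp1r18 followed the same order of mice downwards: the controls exceeded it by 24.3-fold, 11.7-fold, 6.48-fold and 2.96-fold. For Tulp4 the factors were 30.1, 14.6, 7.18 and 3.03, and for Adgb 33.2, 140.1, 8.16 and 3.14. The order of the 4 mice was thus the same in Zfp37, Ppp1r18 and Tulp4, and Adgb differed from it only in the place of POS replicate 2. That array had the most features below the floor (145), and the part of this in the result was not tested. The 75th percentiles before scaling were 1995.5 on PCS replicate 1, 1531 on POS replicate 2, 1614 on PCS replicate 2 and 1592 on POS replicate 1, and the part of brightness in the result was not tested.

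The group means of these contrasts were 3.02 ± 0.79 (SE, limma) in PCS and 2.17 ± 0.79 in POS for Zfp37, -3.65 ± 0.63 and -2.55 ± 0.63 in Ppp1r18, -3.88 ± 0.68 and -2.73 ± 0.68 in Tulp4, and -4.04 ± 1.15 and -4.39 ± 1.15 in Adgb, as log2 changes. Exactly 4 features (0.0322% of all) lay at least 4-fold lower than control in both PCS and POS, namely Ppp1r18, Tulp4, Adgb and the unnamed feature 15969. Another 4 (0.0322%) lay at least 4-fold higher in both, namely Zfp37, Phldb2 and the unnamed features 5341 and 10961. These counts depend on POS replicate 2: on POS replicate 1 alone the log2 change was -1.57 in Ppp1r18, -1.60 in Tulp4, -1.65 in Adgb, -1.55 in feature 15969 and 1.09 in Zfp37, all smaller than 4-fold, which is 2 on the log2 scale. Over all features limma called 0% in PCS and 0% in POS against control, with 829 and 3451 at an unadjusted p under 0.05. The median log2 change of all features was -0.02 in PCS and 0.04 in POS. The 3 genes with a name from the list used for neurons also stood above control, and are among the features the authors selected by fold on these arrays. In PCS and POS, Vgf stood above by 0.55 and 1.07, Sh3gl2 by 0.74 and 0.97 and Rbfox2 by 0.65 and 1.09, and their part in the result was not tested.

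PCS against POS sets conventional beside organic potatoes within storage. The genes were not chosen on this difference, but it uses the same PCS and POS arrays as the contrasts that chose them. Zfp37 in PCS stood above POS by 2.99 on the log2 scale in replicate 1 and differed by -1.30 in replicate 2. Ppp1r18 had -3.04 and 0.85, Tulp4 -3.31 and 1.02, and Adgb -3.40 and 4.10. The sign turned between the replicate numbers in every one of the 4 genes. By limma the differences were 0.85 ± 0.86 (SE) in Zfp37, -1.09 ± 0.69 in Ppp1r18, -1.14 ± 0.74 in Tulp4 and 0.35 ± 1.26 in Adgb, with adjusted p of 0.634, 0.445, 0.454 and 0.908. The 95% interval for Zfp37 ran from -1.03 to 2.73. Over all features 0% passed, with 1676 at an unadjusted p under 0.05, and 20 differences were thus tested over the 5 comparisons among these 4 genes. Without POS replicate 1 the fit called 3954 features, Adgb among them at a log2 difference of 3.09.

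Across the 15 arrays Zfp37 ran opposite to the other genes. Its log2 level correlated with that of Ppp1r18 at r = -0.98 (rho -0.86), with Tulp4 at r = -0.97 (rho -0.83) and with Adgb at r = -0.93 (rho -0.88), n = 15. Over the 11 unstored arrays the values were -0.94, -0.81 and -0.93. Within the 7 unstored arrays of replicates 1 and 2 they were 0.01, 0.54 and 0.33, so the opposition was not seen among those 7. It was seen between those 7 arrays, the 4 replicate 3 arrays and the 4 stored arrays. It was also seen within the 4 stored arrays, where Ppp1r18 and Tulp4 fell in the order in which Zfp37 rose. Adgb departed from that order only on POS replicate 2. The arrays fall into separate sets and share scaling, and these r values describe the arrays without a test.

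**Figure D4:**
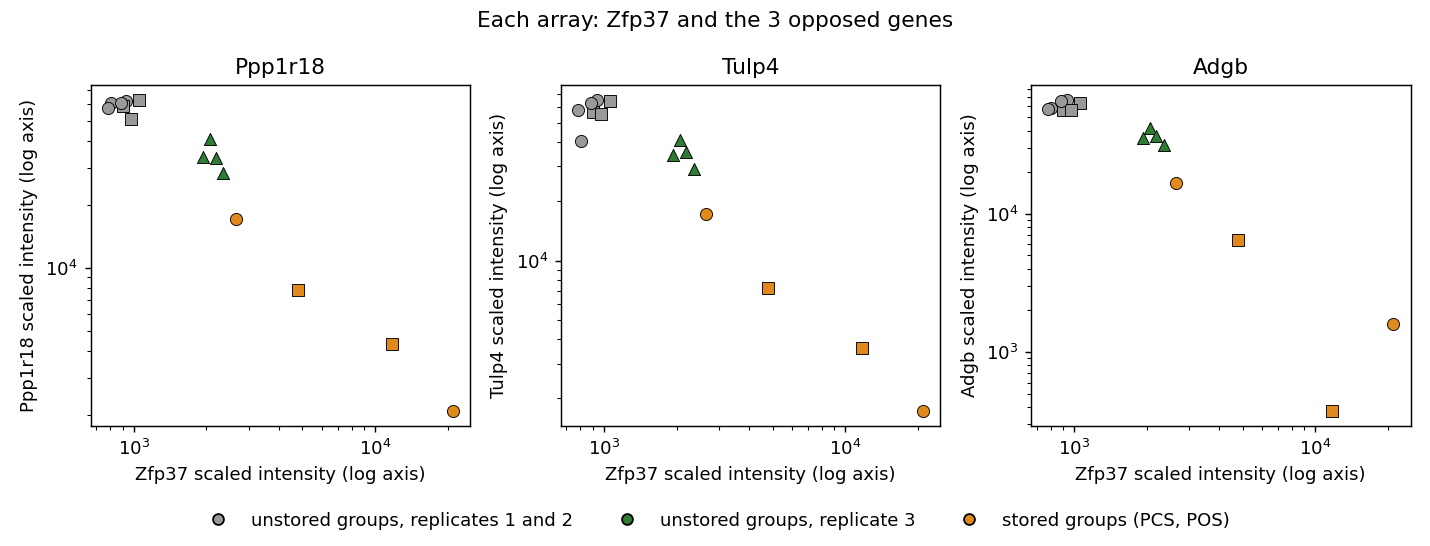
Scaled intensity of Ppp1r18, Tulp4 and Adgb against that of Zfp37, both on log axes; each point is 1 array, with shape for the replicate number and colour for unstored replicates 1 and 2, unstored replicate 3 and stored groups. The replicate 3 arrays, with Zfp37 between 1928 and 2355, fall between the 7 other unstored arrays and the 4 stored arrays in every panel except for Tulp4 on ADI replicate 1.

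Ppp1r18, Tulp4 and Adgb ran closely together on most arrays. On 13 arrays, all but ADI replicate 1 and POS replicate 2, their differences from their own control means lay within 0.03 to 0.45 of each other on the log2 scale, with a median range of 0.07. The 3 controls that set those means are among the 13, with ranges of 0.03, 0.04 and 0.03. The arrays left out had the widest ranges. On ADI replicate 1 the range was 0.62 through Tulp4, and on POS replicate 2 it was 3.59 through Adgb. The deposited intensities of the 3 genes and the unnamed feature 15969 also lay near each other on most arrays. In the order Ppp1r18, Tulp4, Adgb and feature 15969 they were 47924, 49891, 50875 and 47773 on control replicate 1. On POS replicate 1 they were 24137, 24255, 23637 and 24355, and on POS replicate 2 5893, 4853, 510 and 6112. What these 4 features share was not tested, as the probe sequences were not used. Ppp1r18 correlated with Tulp4 at r = 0.99 and with Adgb at 0.94 over 15 arrays, and with Adgb at 0.998 without POS replicate 2. Over the 7 unstored arrays of replicates 1 and 2, r was 0.17 for Ppp1r18 with Tulp4, 0.72 for Ppp1r18 with Adgb and 0.57 for Tulp4 with Adgb. The stored arrays and the replicate 3 pattern were part of how the genes were singled out. The r values over all 15 arrays therefore carry no test, and those over the 7 arrays were lower. Of the 47 other named genes, 0 correlated positively with any of these 3 genes over the 15 arrays, the highest being Phldb2, a pleckstrin homology domain protein, at -0.08 with Ppp1r18, -0.10 with Tulp4 and -0.12 with Adgb. With Zfp37 all 47 correlated positively. The authors selected the named features by fold on these same arrays, so their shared sign is not independent of that selection.

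The feature most like both Ppp1r18 and Tulp4 among 12438 others was the unnamed feature 15969, at r = 0.999 and 0.995, and feature 34724 at 0.98 was most like Adgb. With Adgb, feature 15969 had 0.94 and ranked 30. That ranking depended on POS replicate 2: without it, Adgb had 0.999 with feature 15969 and 0.96 with 34724. Over the 11 unstored arrays Adgb had 0.99 and 0.96 with them, and over the 7 of replicates 1 and 2 it had 0.88 and 0.43. The second unnamed feature by likeness was 3245 for Ppp1r18 at 0.96 and 7597 for Tulp4 at 0.95, each ranked 3 after feature 15969 and the other gene of the pair, and 1489 for Adgb at 0.97. Feature 15969 kept r = 0.99 with Ppp1r18 over the 11 unstored arrays and 0.90 over the 7 of replicates 1 and 2, and with Tulp4 it had 0.92 and 0.42. It too was low on the stored arrays, at 1905 on PCS replicate 1 and 17316 on POS replicate 1. For Zfp37 the most alike named genes were Sox13, a transcription factor, at 0.91, Fank1, a testis ankyrin protein, at 0.88 and Synm, an intermediate filament protein, at 0.87, and the unnamed features 26313 and 27074 had 0.93 and 0.92. Over the 11 unstored arrays Sox13 kept 0.66 and Fank1 0.62 with Zfp37, while Synm had -0.24. In all, 14 features had r over 0.9 with Zfp37 and 40 had r under -0.9.

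Position, brightness and the scanner limit were set beside the result. The 10 unnamed features nearest to each gene by feature number had medians within 0.38 of control on the log2 scale on PCS replicates 1 and 2 and POS replicate 1, where the genes themselves had moved by at least 1.09 in size. On POS replicate 2 the neighbours of Adgb had a median of -2.66, with 9 of 10 at least 2-fold lower, beside -7.13 in Adgb. The neighbours of Zfp37 on that array had a median of -1.88 while Zfp37 had 3.25, and those of Ppp1r18 and Tulp4 had 0.23 and -0.08. The part of these neighbourhoods in the Adgb value was not tested. Without POS replicate 2 the POS change was 1.09 in Zfp37, -1.57 in Ppp1r18, -1.60 in Tulp4 and -1.65 in Adgb, so that the 3 lower genes then lay close to each other.

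**Figure D5:**
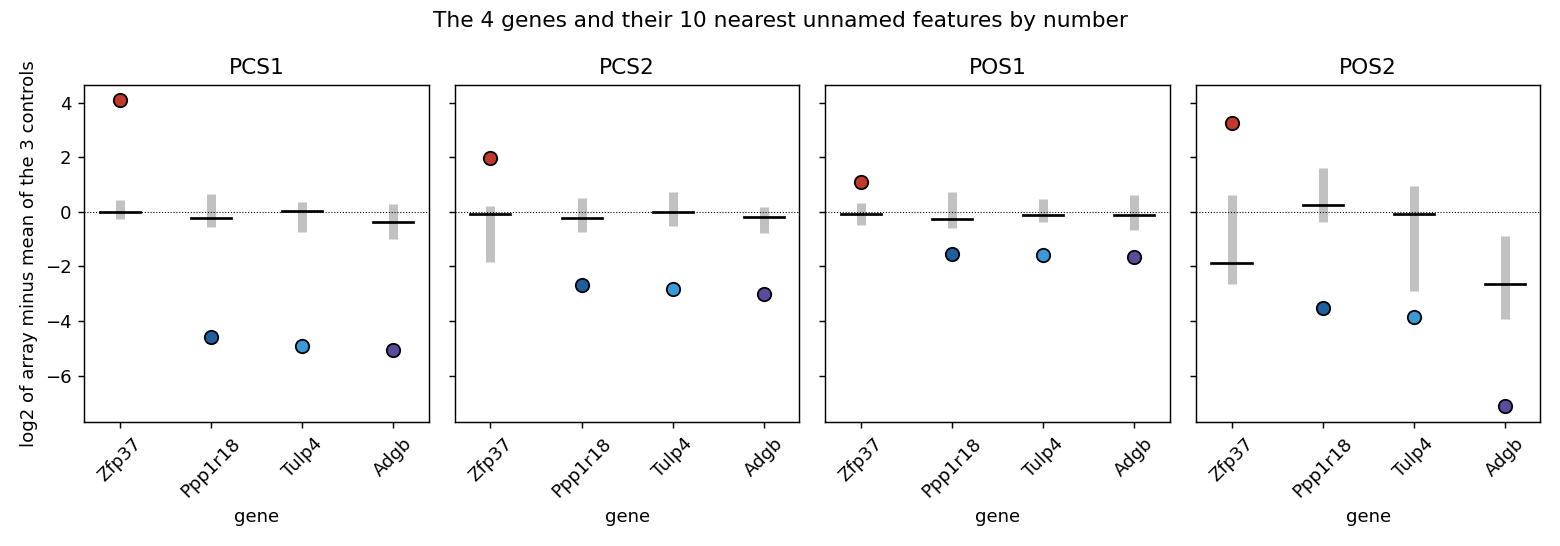
Log2 difference from the control mean on the 4 stored arrays for each gene (point) and for its 10 nearest unnamed features by number (grey bar from lowest to highest, black line at the median). Neighbour medians stay near 0 except on POS replicate 2, where they are -1.88 around Zfp37 and -2.66 around Adgb.

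None of the 4 genes reached the scanner ceiling of 65535 on any array. The highest deposited intensities were 54623 for Ppp1r18, 56843 for Tulp4 and 58575 for Adgb, all on PO replicate 1, and 37037 for Zfp37 on PCS replicate 1. Deposited intensities without scaling gave the same separation: Zfp37 lay between 713 and 2245 on unstored and between 3715 and 37037 on stored arrays, and Ppp1r18 between 27011 and 54623 and between 3685 and 24137. Without scaling, the log2 change in PCS was 3.98 in Zfp37, -2.68 in Ppp1r18, -2.91 in Tulp4 and -3.07 in Adgb. Of the 52 features with a control level of at least 30000, 4 lay at least 4-fold lower in PCS and 10 in POS, and Ppp1r18, Tulp4 and Adgb are 3 of the 4 and 3 of the 10. Over all features 6 did in PCS and 144 in POS. The median log2 change of the 52 was -0.47 in PCS and -0.55 in POS, and the scanner ceiling after scaling lay between 37172 and 48450.3 on stored arrays against 68746.5 and 88464.5 on unstored ones. With all arrays capped at the lowest of these ceilings (common ceiling), the PCS change was -3.15 in Ppp1r18, -3.34 in Tulp4 and -3.51 in Adgb. At the main settings it was -3.65, -3.88 and -4.04. Zfp37 kept 3.02 in both.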

How the data were processed

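The authors deposited 1 intensity per feature and array (12439 features, 18 arrays), made with Agilent Feature Extraction according to the submitters' processing notes. Neither version nor background method is given in the sources. Some values are at or below 0, so they were read as background-subtracted and unscaled. The authors also deposited log2 folds of each array over the controls, set to 0 between 0.5-fold and 2-fold per the file headers; these were not used, only the table's names and feature numbers.

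Intensities were multiplied per array to equalise the 75th percentile, raised to a floor of 16 and converted to log2. 1 fit of group means used 15 arrays (limma 3.58.1, R 4.3.3, lmFit and eBayes), with Benjamini-Hochberg adjustment over all features at 0.05, and was tested on simulated data. 3 columns were left out for the faults described in the report. The members, lists and alternatives were chosen with earlier results of these data known. Named genes are the members and, for each, the 3 named and 2 unnamed features of highest r over 15 arrays. None of the 31 genes of 5 lists (protein phosphatase 1 subunits, the tubby family, globins, KRAB partners, other KRAB zinc fingers) has a name in the table. Residuals of same-numbered arrays correlated in each of 3 pairs (ADI and control, r from 0.21 to 0.33; PC and control, 0.15 to 0.30), so the numbers were taken as pairing these groups. PO, PCS and POS arrays were not part of that check, and arrays with different numbers were not set beside it. The files give no slide, scan date or detection flag, so these were not tested. Precision is limited by how many arrays each group has.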

Additional observations from a re-analysis of the deposited data

Results flagged for a closer look

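The unused column of PO replicate 2 held a deposited Zfp37 intensity of 19501.5, where the controls had at most 1806. It stands out as a signal in data outside the comparisons. That column equals the mean of PO replicate 3, with 1966, and PCS replicate 1, with 37037, so it adds no separate mouse to the values of Zfp37. The same holds for Ppp1r18 at 16746.5, Tulp4 at 17465 and Adgb at 17705.5.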

How the results depend on the processing

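The sign of the change of the 4 genes in PCS and POS against control was the same under all alternatives run. These contrasts chose the members, so this is no test. Every stored array lay beyond every unstored one, so leaving out 1 array could not turn the sign. Using all 18 arrays, the 3 faulty columns included, gave values of 1.15 in Zfp37, -6.27 in Ppp1r18, -4.22 in Tulp4 and -5.76 in Adgb in PCS. In POS it gave 0.05 ± 1.76 (SE) in Zfp37, which is near 0, and -4.70 in Ppp1r18. Leaving out 1 array at a time moved PCS against control from 1.95 (without PCS replicate 1) to 4.08 (without PCS replicate 2) for Zfp37, from -4.60 to -2.70 in Ppp1r18, from -4.91 to -2.84 in Tulp4 and from -5.05 to -3.03 in Adgb, and POS against control from 1.09 (without POS replicate 2) to 3.25 (without POS replicate 1), from -3.54 to -1.57, from -3.86 to -1.60 and from -7.13 to -1.65. The replicate block gave 3.43 and 2.58 in Zfp37 in PCS and POS and changed no call of the 4 genes among the tested comparisons. In those comparisons no value of the genes passed in any setting except Adgb in PCS against POS without POS replicate 1. Changes near 0 turned sign: with common ceiling Tulp4 0.041 (ADI against control), Adgb 0.026 (ADI against control), Tulp4 0.0074 (PO against control), Adgb 0.0090 (PO against control); with no scaling Adgb 0.024 (ADI against control), Zfp37 0.17 (PC against control), Adgb 0.024 (PC against control), Tulp4 0.0059 (PO against control), Adgb 0.028 (PO against control), Ppp1r18 0.012 (PC against PO); with array weights Zfp37 0.092 (PC against control); with replicate block Zfp37 -0.0015 (PO against control), Adgb 0.0064 (PC against PO); with replicate block, unstored arrays only Tulp4 0.0078 (PO against control); with quantile normalization Ppp1r18 0.12 (PC against PO), Tulp4 0.030 (PC against PO), Adgb 0.0012 (PC against PO); with all 18 arrays Ppp1r18 0.57 (PC against PO), Tulp4 0.55 (PC against PO), Adgb 0.56 (PC against PO). Leaving out 1 array gave ranges for ADI against control Zfp37 -0.54 to 0.21, Ppp1r18 -0.24 to 0.23, Tulp4 -0.51 to -0.046, Adgb -0.32 to 0.13; for PC against control Zfp37 -0.51 to 0.29, Ppp1r18 -0.52 to 0.094, Tulp4 -0.51 to 0.12, Adgb -0.47 to 0.11; for PO against control Zfp37 -0.49 to 0.82, Ppp1r18 -0.61 to 0.26, Tulp4 -0.56 to 0.27, Adgb -0.54 to 0.30; for PC against PO Zfp37 -0.85 to 0.46, Ppp1r18 -0.47 to 0.40, Tulp4 -0.47 to 0.36, Adgb -0.47 to 0.37; for PCS against POS Zfp37 -0.23 to 1.93, Ppp1r18 -2.08 to -0.11, Tulp4 -2.28 to -0.012, Adgb -2.39 to 3.09. Counts of features called, 0 in every comparison at the main settings, were 1 for ADI against control on unstored arrays only, with and without the replicate block, and 2 for PC against control with array weights. For PCS against control they were 8756 with no scaling, 2 with a floor of 64, 2 with the replicate block and 5 with array weights, and for POS against control 7412 with no scaling, 2 with quantile normalization, 5 with a floor of 64 and 1 with dim features left out. Leaving out 1 array moved them from 0 to 1 for PC against control, from 0 to 2 for PO against control, PC against PO and PCS against control, from 0 to 3954 for PCS against POS and from 0 to 5102 for POS against control. Both of the last 2 counts came without POS replicate 1, which leaves POS replicate 2 alone in its group. The cause of these 2 shifts and of the others was not tested. Counts of 1 and 2 came without PC replicate 1 or 2, PO replicate 1 or 3, or PCS replicate 1 or 2. Where leaving out an array of PO, PCS or POS leaves 1 in the group, that array is assumed to vary like the other groups.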

Other observations

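On the unused columns of PCS replicate 3 and POS replicate 3 the deposited intensities were 78 and 33 for Zfp37, -5 and 48 for Ppp1r18, 34 and 6 for Adgb, and 650 and 1014 for Tulp4. These columns had r below 0 with all arrays kept, so the values are not read as levels of the genes. POS replicate 3 is labelled with collection on day 27, where all other samples carry day 20.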
